A study of Mus musculus with 2 samples.

Results

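Type I interferon-stimulated genes were followed in single liver cells of 2 C57/BL6 mice. The group was chosen by gene symbol, as a list of 33 genes known to respond to interferon. Of these, 32 had a row among the 34244 genes of the count matrices, and Mx2 was not analysed here. The Control mouse received peanut oil, the vehicle, and its treatment label reads "Untreated". The other mouse received PCB126, a polychlorinated biphenyl with dioxin-like action through the aryl hydrocarbon receptor, at a stated 20 µg/kg/day. For both mice the labels give liver as tissue, an exposure of 5 weeks, an overnight fast of 12 hours and an age of postnatal day 21, without saying to which time point the age belongs. They speak of a single gavage although the dose is stated per day. Hepatocytes were depleted by spins and a 30 µm strainer, red cells were lysed, and the remaining cells, aimed at 6000 per sample, were captured in droplets for 3′ sequencing.

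Each group is 1 library from 1 mouse, so mouse, library and treatment cannot be told apart. No test between the groups was possible. The measure is the unique molecular identifier (UMI), a counted transcript molecule. Levels are given as CPM, the UMIs of a gene in every 1000000 UMIs summed over the cells of a class. Every interval below is a 95% interval for counting error alone, apart from ranges over repeated random draws, and none covers variation between mice.

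Type I interferons bind a receptor made of Ifnar1 and Ifnar2. The receptor activates the kinases Jak1 and Tyk2, and a complex that holds Stat2 and Irf9 then enters the nucleus and binds the interferon-stimulated response element in promoters. The products include antiviral effectors (the Ifit, Oas, Ifitm and Mx families, tetherin and viperin), nucleic acid sensors, the ubiquitin-like protein Isg15, and factors such as Irf7 that extend the response. In liver, sinusoidal endothelial cells and immune cells are both known to respond to interferon.

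Promoters of 4 members on which the results turn are shown first, because Rsad2, Ifit1 and Isg15 had the highest lower bounds of the ratio in neutrophils and Ifitm2 changed side between cell types. They cover 150 to 31 bases before the start site on the gene's own strand, from the RefSeq table for GRCm38.p6. Capitals mark the core of the response element, written as GAAA, any 2 bases, GAAA, or on the other strand as TTTC, any 2 bases, TTTC. Overlapping matches run together. The windows are chr4:156200849-156200968 (minus strand) for Isg15, chr19:34640739-34640858 (plus strand) for Ifit1, chr12:26456483-26456602 (minus strand) for Rsad2 and chr7:140955992-140956111 (minus strand) for Ifitm2.
Isg15: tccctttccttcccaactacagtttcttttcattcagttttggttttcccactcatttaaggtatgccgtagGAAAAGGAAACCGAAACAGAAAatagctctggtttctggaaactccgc
Ifit1: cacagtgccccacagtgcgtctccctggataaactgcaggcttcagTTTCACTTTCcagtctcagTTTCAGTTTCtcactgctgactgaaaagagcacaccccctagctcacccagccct
Rsad2: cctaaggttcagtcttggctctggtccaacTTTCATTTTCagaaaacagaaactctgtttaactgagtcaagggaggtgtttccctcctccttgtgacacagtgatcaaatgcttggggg
Ifitm2: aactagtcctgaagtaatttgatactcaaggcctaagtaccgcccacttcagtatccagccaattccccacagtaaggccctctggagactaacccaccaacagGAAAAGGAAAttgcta
Isg15 held 3 overlapping matches, Ifit1 held 2, and Rsad2 and Ifitm2 held 1 each. Promoters were found for 24 of the 33 symbols. Within 250 bases before a start, 12 of these 24 genes (50%) held the letters on either strand, against 936 of 27025 genes in the table (3.46%). A match describes the letters and is not evidence of binding.

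The Control matrix held 24134912 UMIs in 8550 barcodes, and the PCB126 matrix held 16269562 UMIs in 4307 barcodes. After filtering, 1858 Control cells (median 5258.5 UMIs) and 1138 PCB126 cells (median 6567 UMIs) remained. On mitochondrial share alone, 412 Control and 1698 PCB126 barcodes had been left out, and the kept cells had median mitochondrial shares of 7.58% and 12.2%. The part of this difference in the results was not tested beyond the limits of 10% and 50% tried in the closing section. The libraries shared 3 barcodes in all and 0 among the cells used. Cells were assigned to types by marker genes, with 11.5% of Control and 14.7% of PCB126 cells left ungated. A lead of exactly 2 markers, the smallest accepted, was seen in 140 and 134 cells. The makeup of the libraries differed: neutrophils were 732 of the Control cells and 92 of the PCB126 cells, and liver sinusoidal endothelial cells (LSEC) were 173 and 479. A ratio was formed in 4 types with at least 50 cells in each library: neutrophils, LSEC, vascular endothelial cells (58 and 85) and cholangiocytes, the bile duct epithelium (66 and 84). The 8 defining markers of each of these types had UMIs in both libraries. Summed erythroid marker levels were lower in PCB126 in all 4 types, from 3266 to 501 CPM in neutrophils and from 2811 to 723 CPM in LSEC, and their part in the results was not tested.

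Interferon-stimulated genes stood higher in PCB126 neutrophils than in Control neutrophils. With at least 20 UMIs over both libraries, 22 of the 32 members could be compared, and 17 were at least 1.5 fold higher, against 26.2% of all genes compared in these cells. All counts past 1.5 fold use the ratio with 0.5 UMIs added to each count, while the ratios printed for single genes add nothing. The interval lay above 1 for 16 of the 17, against 12.1% of all genes. Ifitm2 was the 1 member at least 1.5 fold lower, against 15% of all genes, and its interval lay below 1, against 6.32% of all genes. The median log2 ratio was 1.15 over the 22 members and 0.18 over all genes. The neutrophil sums hold 2800032 Control and 385293 PCB126 UMIs, so the PCB126 levels are the less precise. Other genes moved with the libraries in these cells. Summed markers of classical monocytes stood at 379 and 771 CPM (7 of 8 markers with UMIs in Control, 4 of 8 in PCB126) and those of LSEC at 45.0 and 122 CPM (7 and 8 of 8). Camp, a granule gene of immature neutrophils, stood at 498 and 1965 CPM. The granule genes Ltf (292 and 605 CPM) and Ngp (1335 and 1921 CPM) lay the same way, and Mmp8 (639 and 423 CPM) the other way. Cluster 20, led by Camp, Ltf and Ngp, held 10 Control neutrophils and 1 PCB126 neutrophil. The alarmin gene S100a8 stood at 57355 and 32004 CPM. The part of these genes in the member differences was not tested.

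Rsad2 encodes viperin, an antiviral enzyme that acts on nucleotides, and lies at chr12:26442746-26456452 (GRCm38). Its level was 26.4 CPM (20.8 to 33.2, 74 UMIs) in Control neutrophils and 301 CPM (249 to 361, 116 UMIs) in PCB126 neutrophils. This is a ratio of 11.4 (8.44 to 15.5), or 3.51 on the log2 scale. With the profile of ambient RNA subtracted, 0 of the 74 Control UMIs and 113.6 of the 116 PCB126 UMIs remained, and the log2 ratio of 10.56 then depends on the pseudocount and is no bound. That profile came from barcodes with under 250 genes, with the hemoglobin genes left out. In Control, hemoglobin was 54.6% of their UMIs, and barcodes with at least 50% hemoglobin held 3266 of their 3527 Rsad2 UMIs. Whether the subtraction took away too much was not tested. Few cells held the Rsad2 transcripts: the 5 PCB126 neutrophils with most Rsad2 carried 89 of the 116 UMIs. Without the 5 highest cells of each library, a comparison added after the data were seen, the ratio was 4.38 (2.62 to 7.17). The level of PCB126 neutrophils was therefore above that of Control neutrophils also outside those cells.

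Isg15, whose product is joined to other proteins much as ubiquitin is, lies at chr4:156199424-156200818. It stood at 48.9 CPM in Control and 236 CPM in PCB126 neutrophils, a ratio of 4.83 (3.66 to 6.34). With the same ambient profile subtracted its log2 ratio went from 2.27 to 3.32. Of the 715 Isg15 UMIs in the Control profile, 666 lay in the barcodes with at least 50% hemoglobin. One PCB126 cell held 30 of the 91 UMIs, and without the 5 highest cells of each library the ratio was 2.58 (1.64 to 3.94). Ifit1, an effector that binds foreign RNA caps (chr19:34640871-34650009), stood at 5.00 and 57.1 CPM. Its ratio of 11.4 (5.59 to 24.1) rested on 1 cell with 18 of the 22 PCB126 UMIs. Without the 5 highest cells of each library, 6 Control UMIs and 0 PCB126 UMIs of Ifit1 remained, so its level in the other PCB126 neutrophils was not detectable at this depth.

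Slfn5, a Schlafen family member at chr11:82951349-82964840, depended least on single cells among the 5 genes with the highest lower bounds. It stood at 23.2 and 125 CPM, a ratio of 5.37 (3.62 to 7.91), and at 4.92 (2.66 to 8.92) without the 5 highest cells of each library. Oasl1, an OAS-like regulator of Irf7 translation, stood at 9.29 and 41.5 CPM, a ratio of 4.47 (2.24 to 8.66). Without the 5 highest cells of each library its interval held 1 (0.556 to 7.58).

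By role, the sensors were 3 of 3 at least 1.5 fold higher in PCB126 neutrophils, where 26.2% of all genes were. They were Zbp1, a sensor of Z-form nucleic acid (4.15 fold), Ifih1, which encodes the RNA sensor MDA5 (2.60 fold), and Ifi204, a DNA sensor (2.38 fold). Of the OAS family, 3 of 4 compared genes passed that fold (Oasl1, Oas2 and Oas3), with Oasl2 at 1.46 fold. Oas2, with 31 and 8 UMIs, had an interval that held 1 (0.745 to 4.17). Its log2 ratio of 0.97 became 0.15 without the highest cell. Among the transcription factors, Irf7 (1.94 fold) and Irf9 (1.95 fold) passed 1.5 fold, while Stat2, with 34 and 5 UMIs, had an interval that held 1. Cmpk2, a mitochondrial nucleotide kinase, was 4.36 fold higher, and its log2 ratio of 2.15 became 0.54 without the highest cell. The membrane effectors differed among themselves. Ifi27l2a was 61.4 and 109 CPM on 172 and 42 UMIs (1.77 fold, with an interval above 1), while Ifitm3, which restricts virus entry, stood at 791 and 714 CPM, with an interval of the ratio from 0.793 to 1.02. Ifitm2, its neighbour in the same family (chr7:140954837-140955987), stood at 3081 CPM (3017 to 3147) in Control and 1744 CPM (1615 to 1881) in PCB126 neutrophils. Control was thus 1.77 times PCB126 (1.63 to 1.91). Trim30a, a regulator of inflammatory signalling, stood at 219 and 257 CPM with an interval that held 1. Ifitm2 and Ifitm3 together held 3872 CPM in Control and 2458 CPM in PCB126, of a sum over all members of 4671 and 4456 CPM. The sum over the 28 inducible members, which leaves out Ifitm2, Ifitm3, Bst2 and Ifi27l2a, was 734 and 1874 CPM.

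**Figure D1:**
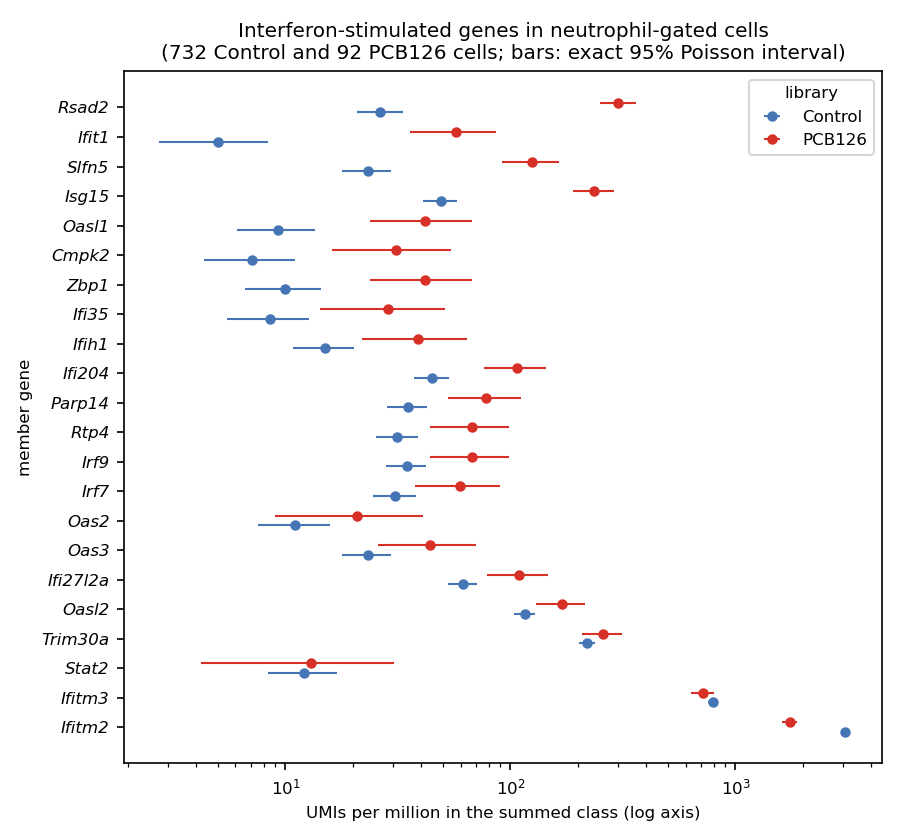
Level of each compared member in neutrophil-gated cells, in CPM on a log axis, for the Control library (blue) and the PCB126 library (red), with exact 95% Poisson intervals. Ifit1 (5.00 and 57.1) and Rsad2 (26.4 and 301) lie farthest apart, and Ifitm2 lies the other way (3081 and 1744).

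The neutrophils of the libraries fell into different clusters, which were built without the members. Of 732 Control neutrophils, 319, 238 and 136 lay in clusters 1, 3 and 7, while 62 of 92 PCB126 neutrophils lay in cluster 14 together with 11 Control neutrophils. Within cluster 14 the inducible sum was 1150 CPM in Control and 1285 CPM in PCB126, and 930 and 1147 CPM without the highest cell of each library. Within cluster 3, whose leading genes include the cytokine genes Tnf and Il23a, it was 800 CPM in 238 Control cells and 3617 CPM in 12 PCB126 cells, and 2853 CPM in these without their highest cell. In cluster 1 it was 705 and 4384 CPM, and 674 and 857 CPM without the highest cell of each library. In cluster 7 it was 755 CPM in 136 Control cells and 821 CPM in 4 PCB126 cells, and 696 and 518 CPM without the highest cell of each library. The inducible sums thus lay nearer each other in cluster 14, which holds most PCB126 neutrophils, than in cluster 3. The same held for cluster 7, and for cluster 1 once the highest cells were left out. The Control side of cluster 14 is only 11 cells, and no interval was formed. Single members lay apart there: Rsad2 stood at 73.4 and 154 CPM on 3 and 38 UMIs, and Ifitm2 the other way at 2813 and 1741 CPM. Cluster and library cannot be told apart over the whole class.

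In LSEC fewer members differed. The inducible sum was 1181 CPM in Control and 1293 CPM in PCB126. Of 25 compared members, 5 were at least 1.5 fold higher in PCB126 (14.6% of all genes were) and 0 were at least 1.5 fold lower (12.4% of all genes). The interval also lay above 1 for 3 of the 5 (8.77% of all genes), and 0 members were at least 1.5 fold lower with an interval below 1 (7.25% of all genes). The median log2 ratio was 0.16, against 0.02 over all genes. Ifitm2 stood out: it was 713 CPM (662 to 768, 711 UMIs) in Control and 1515 CPM (1469 to 1563, 4097 UMIs) in PCB126, a ratio of 2.13 (1.96 to 2.30). Its direction was the opposite of that in neutrophils.

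Control LSEC lay mostly in cluster 8 (102 of 173) and PCB126 LSEC mostly in clusters 2 and 4 (266 and 157 of 479). The Ifitm2 difference was present within clusters 8 and 4. In cluster 8 Ifitm2 was 604 CPM (541 to 672) in 102 Control cells and 1391 CPM (1148 to 1671) in 13 PCB126 cells. In cluster 4 it was 748 CPM (614 to 902) and 1561 CPM (1487 to 1638) in 22 and 157 cells. In cluster 15 the intervals overlapped, with 1254 CPM (888 to 1722) in 17 Control cells and 1509 CPM (1195 to 1881) in 28 PCB126 cells. Summed neutrophil markers stood at 65.2 and 65.5 CPM in Control and PCB126 LSEC.

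Other differences in LSEC with an interval above 1 were seen for Ifit3 (2.53 fold, 1.14 to 6.62, on 7 and 48 UMIs), the apoptosis factor Xaf1 (1.84 fold, 1.13 to 3.15), the ADP-ribosyltransferase Parp14 (102 and 153 CPM) and Bst2. Bst2 encodes tetherin, which holds budding virus at the cell surface, and stood at 256 and 352 CPM (1.38 fold, 1.20 to 1.59). Rsad2 was 54.2 and 79.9 CPM (1.48 fold, 1.09 to 2.03). Ifitm3 was 474 and 591 CPM (1.25 fold, 1.12 to 1.38). Stat2 and Ifi204 lay the other way, with Control 1.44 times (1.01 to 2.02) and 1.22 times (1.02 to 1.47) PCB126. At no more than 10% mitochondrial UMIs the log2 ratio went from 0.85 to -0.46 for Xaf1, from -0.29 to 0.21 for Ifi204 and from 0.32 to -0.03 for Ifitm3. Slfn5, among the 5 most abundant members, stood at 362 and 384 CPM with an interval that held 1.

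Vascular endothelial cells had the highest member sum of the endothelial classes in Control, 3971 CPM, and it was 3965 CPM in PCB126. Of 24 compared members, 3 were at least 1.5 fold higher (9.25% of all genes) and 1 was at least 1.5 fold lower (16% of all genes), with a median log2 ratio of -0.09. The interval also lay above 1 for 1 of the 3 (3.87% of all genes) and below 1 for the lower member (8.02% of all genes). Bst2 was 290 CPM (250 to 335) in Control and 537 CPM (488 to 589) in PCB126, 1.85 fold (1.56 to 2.21). Ifi204 was 78.0 and 33.7 CPM. Ifitm2 was 1289 and 1248 CPM, Ifitm3 1119 and 1016 CPM, Slfn5 470 and 406 CPM, and Parp14 119 and 122 CPM. Ifitm2, 2.13 fold higher in PCB126 LSEC, thus stood near a ratio of 1 (0.883 to 1.06) in the vascular cells.

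In cholangiocytes some of the higher members were also higher in other types. Zbp1, Oasl2 and Ifit1 had intervals above 1 in neutrophils too, where Ifit1 rested on 1 cell, and Bst2 had them in both endothelial types. Herc6 had intervals that held 1 in both endothelial types and was under 20 UMIs in neutrophils. In neutrophils 16 of 22 compared members were at least 1.5 fold higher with an interval above 1 (12.1% of all genes). The overlap with neutrophils thus does not single out these members. Of 21 compared members, 6 were at least 1.5 fold higher (9.78% of all genes) and 1 was lower (6.6% of all genes), and the median log2 ratio was 0.44, against 0.09 over all genes. The interval also lay above 1 for 5 of the 6 (4.58% of all genes) and below 1 for the 1 lower member (3.34% of all genes). Zbp1 was 5.76 and 23.8 CPM (4.14 fold, 1.83 to 10.9), Oasl2 8.23 and 28.0 CPM (3.40 fold), Ifit1 13.2 and 35.2 CPM (2.67 fold), Herc6, an enzyme that attaches Isg15, 9.88 and 23.2 CPM (2.35 fold), and Bst2 37.9 and 85.2 CPM (2.25 fold). Unlike in neutrophils, Isg15 was not among them: it stood at 30.5 and 32.2 CPM with an interval that held 1. Rsad2, with 1 and 7 UMIs, was under the minimum of 20 UMIs and could not be compared. Ifi27l2a, a small mitochondrial protein gene, was 13.2 and 2.98 CPM on 16 and 5 UMIs. All cholangiocytes of both libraries lay in 1 cluster.

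**Figure D2:**
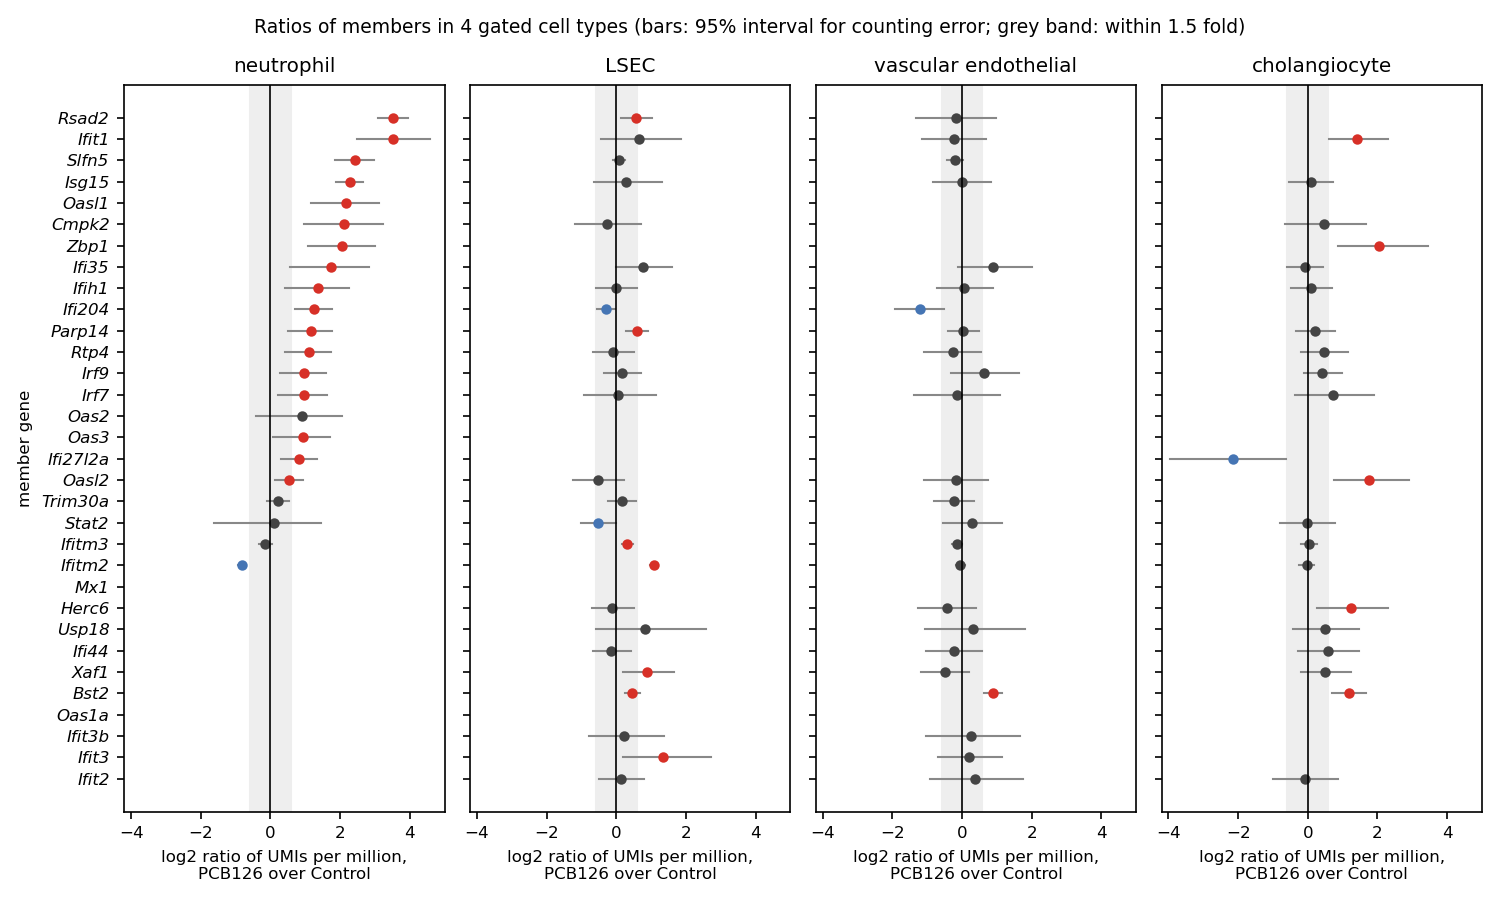
Ratio of each member, PCB126 over Control, on a log2 scale in the 4 cell types, with 95% intervals for counting error. Red points have an interval above 1 and blue points an interval below 1, and a member without a point had under 20 UMIs. Most points lie to the right in neutrophils (17 of 22 past the grey band of 1.5 fold) and around 0 in vascular endothelial cells.

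Genes upstream of the members were read from pathway lists. Over 20 type I and III interferon ligand genes, Control cells held 0 UMIs of 13754218 and PCB126 cells held 2 UMIs, 1 of Ifnb1 and 1 of Ifnk. Ligand transcripts were thus not detectable in Control at this depth. Of the receptor and JAK-STAT genes, 6 of 12 compared were at least 1.5 fold higher in PCB126 neutrophils (26.2% of all genes were), 0 of 12 in LSEC (14.6%), 3 of 12 in vascular cells (9.25%) and 2 of 11 in cholangiocytes (9.78%). The 2 receptor subunits lay in opposite directions in neutrophils. Ifnar1 was lower in PCB126, 98.9 and 38.9 CPM, and Ifnar2 was higher, 81.4 and 119 CPM (1.47 fold, 1.04 to 2.02). Ifnar1 was also lower, with intervals below 1, in LSEC (62.2 and 43.3 CPM) and vascular cells (54.6 and 25.3 CPM). Ifnar2 was lower in LSEC (103 and 76.6 CPM), and its interval held 1 in vascular cells. In cholangiocytes the intervals of both subunits held 1. Of 25 compared interferon-stimulated genes outside the member list, 18 were at least 1.5 fold higher in PCB126 neutrophils (26.2% of all genes were). At least 1.5 fold lower was 1 of the 25 (15% of all genes). The median log2 ratio was 1.03, against 0.18 over all genes. In LSEC these counts were 5 and 2 of 31. The 5 are near the 14.6% of all genes, and 12.4% of all genes were lower.

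How many cells carry the response was counted per cell. Each cell was thinned at random to 2000 UMIs, which left out 91 shallower Control and 36 PCB126 cells, and a cell was counted as carrying the response with UMIs of at least 3 of the 28 inducible members. In neutrophils 84 of 693 Control cells (12.1%, 9.78 to 14.8) and 24 of 89 PCB126 cells (27.0%, 18.1 to 37.4) did so. Thinning is random, so it was repeated 20 times: the median share was 11.7% (range 10.2 to 12.6) in Control and 30.3% (27.0 to 36.0) in PCB126. The share was higher in PCB126 in all 20 draws, with a median ratio of 2.66 (range 2.22 to 2.95). The draws reuse the same cells, so their range covers thinning alone and not counting error. Values in brackets beside a median over draws are the lowest and highest draw. When all 32 members were counted, Ifitm2 included, the ratio was 1.21, with an interval that held 1 (0.891 to 1.61). Without thinning the shares were 24.0% and 51.1%. The count is a range and not a cell type: 121 and 17 neutrophils lay at 2 genes and 45 and 5 at 3 genes. Free RNA can add UMIs to a cell. Its estimated share of UMIs was 16.6% in Control and 8.67% in PCB126 neutrophils, 12.9% and 16.5% in LSEC, and from 4.73% to 6.19% in vascular cells and cholangiocytes. In barcodes with under 250 genes Rsad2 stood at 373 and 57.2 CPM and Isg15 at 75.6 and 22.3 CPM. Counted without Rsad2 and Isg15, a count added after the data were seen, neutrophil carriers were 70 of 693 (10.1%) and 20 of 89 (22.5%), a ratio of 2.22 (1.28 to 3.70). The part of the other members' free RNA in the carrier counts was not tested.

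In LSEC the first draw gave 49 of 160 Control cells (30.6%) and 157 of 458 PCB126 cells (34.3%), and the 20 draws had medians of 26.9% (21.3 to 32.5) and 28.8% (26.9 to 32.3). In vascular endothelial cells it gave 21 of 58 (36.2%) and 30 of 84 (35.7%), with medians of 29.3% (19.0 to 34.5) and 25.0% (15.5 to 34.5) over the 20 draws. The first draw thus lay above all 20 repeats for PCB126 LSEC and for both vascular shares, and the medians are the steadier values. The ratio of shares over the draws ran from 0.907 to 1.37 in LSEC and from 0.499 to 1.38 in vascular cells, on both sides of 1. In cholangiocytes 4 of 66 and 4 of 84 cells carried the response, and over the 20 draws the medians were 3.79% (1.52 to 7.58) and 7.14% (3.57 to 13.1). The median ratio was 2.36 (range 0.629 to 5.50) and above 1 in 16 of 20 draws, while the first draw lay the other way (6.06% and 4.76%). Endothelial cells of the Control mouse therefore had shares near that of PCB126 neutrophils, but their member levels differed. Slfn5 stood at 362 CPM in Control LSEC, 470 CPM in Control vascular cells and 125 CPM in PCB126 neutrophils. Rsad2 lay the other way, at 54.2 CPM in Control LSEC and 301 CPM in PCB126 neutrophils. Among thinned cells, Isg15 was found in 3 of 160 Control LSEC, 2 of 58 Control vascular cells and 15 of 89 PCB126 neutrophils. Whether carriers of these types held the same members was not tested. Carriers were rare in nonclassical monocytes of the Control library (11 of 381, 2.89%), which the PCB126 library lacked, and in B cells (0 of 20 and 1 of 50).

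**Figure D3:**
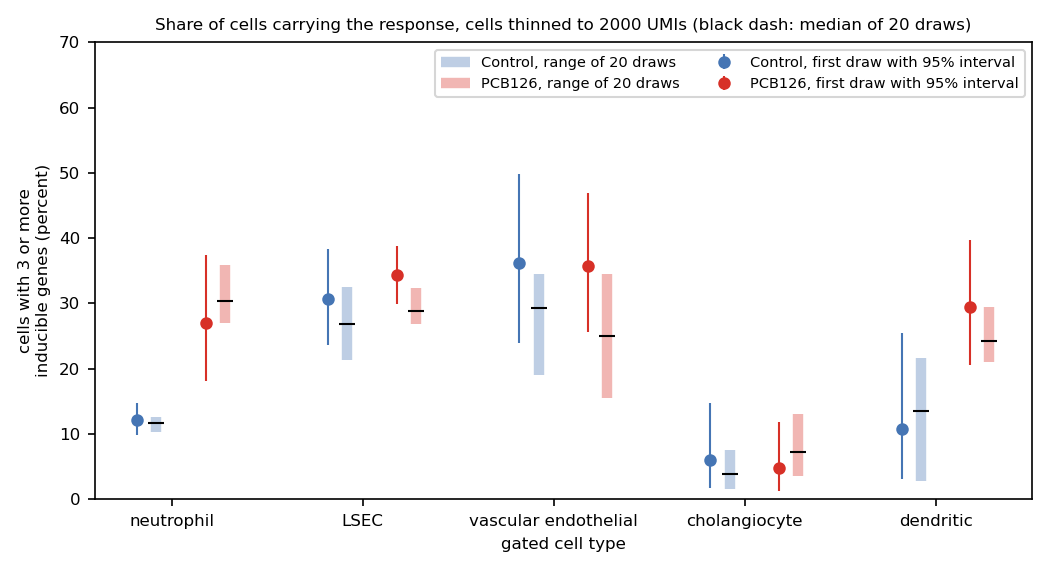
Percent of cells with UMIs of at least 3 inducible members in 5 gated types, each cell thinned to 2000 UMIs. Points with bars are the first draw with its exact 95% binomial interval, shaded bars the range of 20 further draws and dashes their median. In neutrophils the draws of the libraries do not overlap (10.2 to 12.6 and 27.0 to 36.0), while in both endothelial types they do.

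The UMIs were unevenly spread over cells. In PCB126 neutrophils the 9 cells of 89 with most inducible UMIs held 54.8% of them, the top 70 of 693 Control cells held 42.1%, and a single PCB126 neutrophil held 83 of 347 (23.9%). In LSEC the top 16 of 160 and 46 of 458 cells held 27.0% and 29.3%. Cells with at least 8 inducible members, a limit chosen after the data were seen, numbered 4 in Control, all of them neutrophils, and 24 in PCB126. Over the 20 draws they numbered 4 to 9 in Control and 24 to 31 in PCB126. The 24 were 5 LSEC, 2 vascular endothelial cells, 3 neutrophils, 2 classical monocytes, 2 dendritic cells, 1 natural killer cell and 9 ungated cells. The cell with most members, 19 of 28, was ungated. Carriers and other cells of PCB126 neutrophils had like depth, with medians of 3932 and 4055 UMIs. They had means of 5.96 and 6.66 of 8 neutrophil markers and of 1.38 and 1.15 markers of the best other type.

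**Figure D4:**
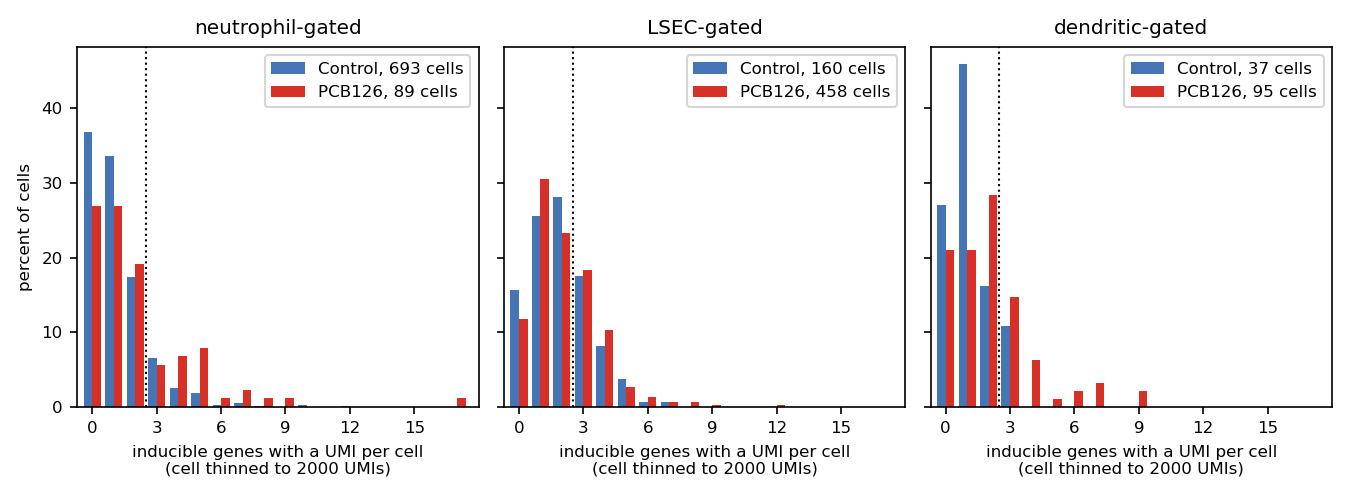
Percent of cells by the number of inducible members with a UMI, each cell thinned to 2000 UMIs, for neutrophil, LSEC and dendritic gates, with the limit of 3 genes as a dotted line. The PCB126 neutrophils reach up to 17 members in a cell, and the Control neutrophils reach 12.

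Dendritic cells had 37 Control and 96 PCB126 cells, too few for a ratio, and their levels are given side by side. The inducible sum was 731 and 1289 CPM. Isg15 was 5.05 CPM on 3 UMIs and 115 CPM on 177 UMIs, of which 1 cell held 78. Bst2 was 82.5 CPM (61.0 to 109) and 178 CPM (158 to 201). Ifitm3 was 205 and 742 CPM, while Ifitm2 was 576 and 139 CPM, so the pair lay in opposite directions. Of the Control cells 31 lay in cluster 11, whose leading genes include Xcr1, and 3 in cluster 9, led by genes such as Cd209a. Of the PCB126 cells 49 lay in cluster 11 and 40 in cluster 9, so cluster and library cannot be told apart in these values. Carriers were 4 of 37 and 28 of 95, with medians of 13.5% (2.70 to 21.6) and 24.2% (21.1 to 29.5) over the draws. In T cells carriers were 0 of 12 in Control, with an exact interval up to 26.5%, and 10 of 47 in PCB126. The ungated cells had inducible sums of 614 and 2006 CPM.

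Rsad2 had its highest level outside these classes. In the 50 erythroid cells of the Control library it stood at 599 CPM (514 to 695) on 175 UMIs, and 34 of the 50 cells had a UMI. PCB126 had 0 erythroid cells. Isg15 stood at 154 CPM there and Ifit1 at 10.3 CPM on 3 UMIs. Among the Control classes, the next levels of Rsad2 were those of LSEC (54.2 CPM), ungated cells (31.6) and neutrophils (26.4), and it was under 7 CPM in nonclassical monocytes, dendritic cells and cholangiocytes.

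**Figure D5:**
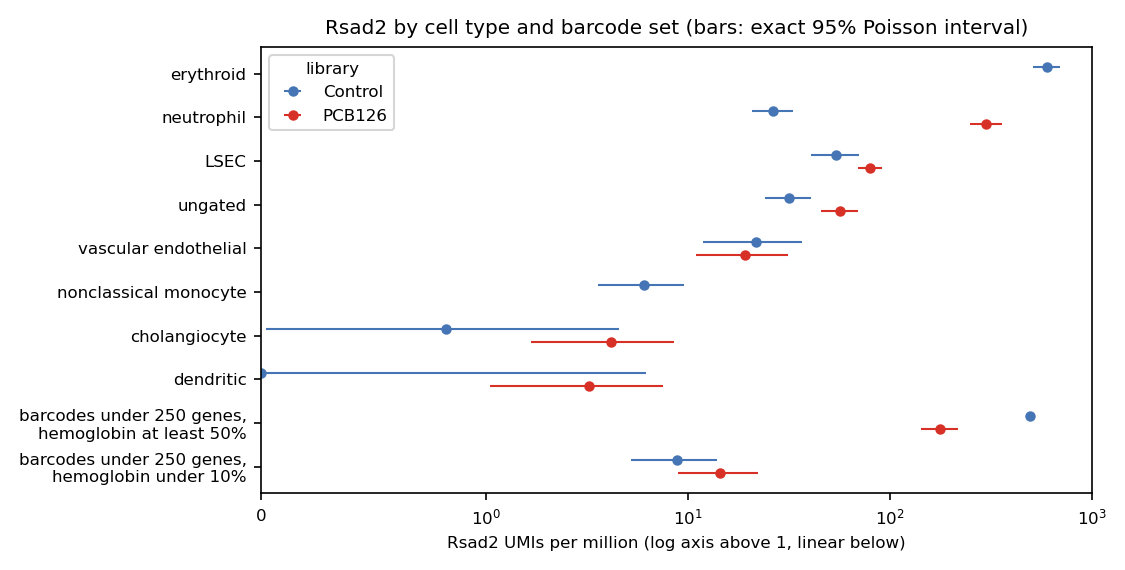
Rsad2 level in CPM by cell type and, in the last 2 lines, in barcodes with under 250 genes split by hemoglobin share, with exact 95% Poisson intervals. The Control erythroid cells (599) and the hemoglobin-rich Control barcodes (495) lie above the PCB126 neutrophils (301).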

How the data were processed

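Both libraries are droplet 3′ single-cell RNA data. The authors deposited raw UMI counts per gene and barcode, and lists of genes and barcodes that hold other content, namely identifiers. Cell Ranger 6.0.0 wrote the matrices, per the file headers. Version 6.1.1 of it, and Seurat 4.0.1, stand in the submitters' processing notes. No source used here names the build they aligned to. Gene positions were taken from GENCODE M21 (GRCm38), which held 34049 of the 34244 identifiers.

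Barcodes with at least 500 UMIs, 250 genes and at most 20% mitochondrial UMIs were kept, and 28 and 11 with the highest Scrublet doublet scores were removed (Scrublet's own threshold called 12 and 3). A marker was on in a cell when its count per 10000 exceeded its mean over the libraries. A cell took the type with most of 8 markers on, with at least 3 on and a lead of 2 over 16 types. This rule was chosen after the data were seen. Leiden clusters (2000 variable genes, 30 components, 15 neighbours, resolution 1; scanpy 1.11.5, leidenalg 0.10.2) were built without the members. Intervals are exact Poisson for levels, Clopper-Pearson for shares and conditional binomial for ratios. The log2 ratios use a pseudocount of 0.5 UMIs. Named genes were, per class, the 5 members with interval bounds farthest above 1, the 5 farthest below and the 5 most abundant, and others are named by role. The ratio code was tested on simulated data. The members and lists were chosen with earlier results of these data known. A gene of the receptor and JAK-STAT list is not reported here by name.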

Additional observations from a re-analysis of the deposited data

Results flagged for a closer look

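Members with intervals on opposite sides of 1 in different cell types are listed here. The difference between the types was not tested. Ifi204 had a log2 ratio of 1.26 in neutrophils, -0.29 in LSEC and -1.20 in vascular endothelial cells. Ifi27l2a had 0.84 in neutrophils and -2.05 in cholangiocytes. Ifitm2 had 1.09 in LSEC and -0.82 in neutrophils.

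Signal was also present in barcodes that the comparisons left out, those with under 250 genes. Where hemoglobin made up at least 50% of their UMIs, Rsad2 stood at 495 CPM in 2653 Control barcodes and 177 CPM in 140 PCB126 barcodes, and Isg15 at 101 and 71.2 CPM. Where hemoglobin was under 10% of UMIs, Rsad2 stood at 8.82 and 14.5 CPM and Isg15 at 1.96 and 4.15 CPM. Ifit1 had 7 UMIs in the hemoglobin-rich Control barcodes and 1 in the PCB126 ones.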

How the results depend on the processing

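No paired analysis was possible because each group is 1 library, and for the same reason no replicate could be left out. Over the alternatives, 169 of 200 recomputed counts, medians and share ratios stayed within their limits (counts within 1.5 times, medians within 1.5 fold, share ratios within the main interval). None of the 4 medians moved beyond that limit. In neutrophils, members at least 1.5 fold higher numbered 9 of 13 with at least 100 UMIs, and members at least 1.5 fold lower numbered 2 of 21 without the cell with most inducible UMIs. The neutrophil ratio of carrier shares was 2.22 in the first draw, 3.55 after thinning to 1000 UMIs, 3.79 with at least 4 genes, and 1.21 when all members were counted, where its interval (0.891 to 1.61) held 1. In LSEC, members higher numbered 9 with an ambient profile subtracted, 8 with at least 5 UMIs and 2 with at least 100 UMIs. LSEC members lower numbered 4 at no more than 10% mitochondrial UMIs, 2 without mitochondrial genes, Gm42418, AY036118 and Lars2 in the total, 2 after thinning, 1 with at least 5 UMIs and 1 without the highest cell. The LSEC share ratio was 0.77 at no more than 10% mitochondrial UMIs and 1.84 after thinning to 1000 UMIs. In vascular cells, members higher numbered 6 with a gate lead of 1, 9 with named Leiden clusters (with or without cluster 14 as neutrophil), 6 with at least 5 UMIs and 1 with at least 100 UMIs, and members lower 0 after thinning, 2 with at least 5 UMIs and 0 with at least 100 UMIs. In cholangiocytes, members higher numbered 1 of 3 after thinning and 1 of 7 with at least 100 UMIs, and members lower 0 under 5 alternatives (without the highest cell, equal weight per cell, thinning, ambient subtraction, at least 100 UMIs) and 2 with at least 5 UMIs. At no more than 10% mitochondrial UMIs the log2 ratio in LSEC changed side for Xaf1 (-0.46), Ifi204 (0.21) and Ifitm3 (-0.03). Herc6 changed side in cholangiocytes after thinning (-0.35), and Ifit1 in neutrophils without the 5 highest cells (-0.77, on 6 and 0 UMIs). The cause of these changes was not tested. Neutrophils and vascular cells gave no value at no more than 10% mitochondrial UMIs, nor neutrophils with named Leiden clusters, because under 50 cells remained in a library. The alternatives with cluster 14 as neutrophil, without the highest or the 5 highest cells, with 20 thinning draws, and with carriers counted without Rsad2 and Isg15 were chosen after seeing the data.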
